A study of Mus musculus with 24 samples.

Results

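The genes described here encode the enzymes of the pentose phosphate pathway and 2 cytosolic enzymes that supply NADPH, measured in mouse liver and in primary hepatocytes that lacked NEMO, KEAP1, both or neither. The list held 10 genes: G6pdx, H6pd, Pgls, Pgd, Rpia, Rpe, Tkt, Taldo1, Me1 and Idh1. Each was read through the brightest array probe set that the platform annotation pairs with that symbol alone. Of the 10 genes, 9 were measured this way among 18820 genes in all, and G6pdx is not analysed here. No filter on low values was used, so all 9 entered every test.

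The pentose phosphate pathway turns glucose 6-phosphate into ribose 5-phosphate for nucleotides and, in its oxidative branch, reduces NADP to NADPH. The non-oxidative branch shuffles sugar phosphates back towards glycolysis, so that cells can make NADPH without accumulating pentoses. In the liver NADPH serves fatty acid synthesis, drug metabolism and the glutathione and thioredoxin systems. KEAP1 holds the transcription factor NRF2 (gene Nfe2l2) at low levels, and genes of this pathway are known NRF2 targets. NEMO (gene Ikbkg) is the regulatory subunit of the IKK kinase that activates NF-kB, and its loss from hepatocytes is known to cause chronic liver injury.

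The study comprised 24 arrays in 8 groups of 3, from 2 sources (whole liver, or hepatocytes isolated by collagenase perfusion and left to attach until the next day) and 4 genotypes. Hepatocytes were kept in high-glucose medium with serum. Control mice were NEMOf/f, carrying floxed NEMO, with no Cre and no KEAP1 allele named for them. The other genotypes were NEMOΔhepa, KEAP1Δhepa and NEMOΔhepa/KEAP1Δhepa, called here NEMO knockout, KEAP1 knockout and double knockout, and were made with Alfp-Cre, which is driven by albumin and alpha-fetoprotein regulatory elements and is known to act in hepatocytes and bile duct cells. The labels give all mice as males of 8 weeks. They do not say whether replicates of a group came from separate animals or preparations, so p-values measure only the spread between these samples. Values are log2 expression as deposited, a change is a difference of log2 group means with its standard error (SE) from limma, and a gene is called when the p-value adjusted over 18820 genes (Benjamini-Hochberg) is under 0.05.

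The identity of the samples was checked with marker genes, with earlier results of these data known. The summed level of 11 measured hepatocyte markers, on a log2 scale, lay between 15.65 and 16.05 on all 24 arrays. A set of 4 arrays stood apart or went against their labels, and the members' main changes are given with and without them. The array labelled liver control 3 had Nqo1, the NRF2-driven quinone reductase, at 9.17, against 4.71 and 5.37 on the other control livers and 8.60 to 9.36 in livers lacking KEAP1. Slc7a11 (9.29) and the member Pgd (9.97) were high on it too. It was set apart for these high genes, Pgd among them, so liver fits without it do not test the members independently. The array labelled liver double knockout 3 carried fat cell transcripts, with Adipoq at 7.17. The bile duct marker Krt7 was high on it too, at 7.81, against a mean of 3.96 on the other double knockout livers. The arrays labelled hepatocyte control 1 and hepatocyte double knockout 3 had the female transcript Xist at 9.65 and 9.76. Nqo1 also varied among the hepatocyte controls, at 7.77, 5.00 and 6.63 on arrays 1, 2 and 3. It read 4.96 to 5.94 in NEMO knockout and 8.07 to 8.65 in KEAP1 knockout hepatocytes. The probe set of Ikbkg lay lower in every NEMO-deficient hepatocyte sample (6.01 to 6.60) than in the other hepatocyte samples (6.63 to 7.02), and Keap1 in the double knockout hepatocytes was lower than in NEMO knockout hepatocytes by 0.71 ± 0.14 (limma adjusted p = 0.0141). In hepatocytes with KEAP1 deleted alone, Keap1 read 5.73, 5.91 and 5.81, which overlapped the controls at 6.32, 5.90 and 5.95. In liver the Ikbkg level of the NEMO-deficient samples (6.14 to 6.47) overlapped that of the others (6.40 to 7.20) at liver control 3. Keap1 in liver read 6.04, 6.35 and 5.88 in the controls and 5.47, 5.38 and 5.76 in the KEAP1 knockout, which was lower without overlap. It read 6.11, 5.81 and 6.16 in the NEMO knockout and 5.94, 5.75 and 5.82 in the double knockout. The double knockout livers thus overlapped the NEMO knockout and, at liver control 3, the controls. The position of these probes relative to the floxed exons is not stated, so the levels of both genes check the labels only in part.

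Promoter sequences of the members whose transcripts differed most are shown first, because the best-known NRF2 motif, the antioxidant response element with the core TGACNNNGC, can be looked for in them. The windows come from RefSeq (GRCm38.p6), run from 250 bases before to 50 bases after an annotated start, and are written 5′ to 3′ on the strand of the gene, in lower case with a motif match in capitals. They cover 12 windows of the 9 members. Pgd lies on the minus strand at chr4:149149991-149166705 and has an upstream start (window chr4:149166656-149166955) and a second one further into the gene (window chr4:149166033-149166332). Tkt lies on the plus strand at chr14:30549131-30574724 (window chr14:30548881-30549180), Taldo1 on the plus strand at chr7:141392160-141402976 (window chr7:141391910-141392209) and Me1 on the minus strand at chr9:86581363-86695914 (window chr9:86695865-86696164).
Pgd, upstream start: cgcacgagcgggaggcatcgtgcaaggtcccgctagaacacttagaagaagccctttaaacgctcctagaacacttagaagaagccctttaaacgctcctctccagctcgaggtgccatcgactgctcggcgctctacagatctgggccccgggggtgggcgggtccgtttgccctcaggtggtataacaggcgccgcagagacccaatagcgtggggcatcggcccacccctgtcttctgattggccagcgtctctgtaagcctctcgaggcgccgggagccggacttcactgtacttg
Pgd, second start: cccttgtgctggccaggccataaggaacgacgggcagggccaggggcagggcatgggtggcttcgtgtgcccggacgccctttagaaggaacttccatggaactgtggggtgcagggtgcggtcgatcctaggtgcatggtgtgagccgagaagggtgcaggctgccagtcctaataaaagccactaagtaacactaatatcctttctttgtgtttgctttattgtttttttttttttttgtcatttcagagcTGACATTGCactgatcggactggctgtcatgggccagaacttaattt
Tkt: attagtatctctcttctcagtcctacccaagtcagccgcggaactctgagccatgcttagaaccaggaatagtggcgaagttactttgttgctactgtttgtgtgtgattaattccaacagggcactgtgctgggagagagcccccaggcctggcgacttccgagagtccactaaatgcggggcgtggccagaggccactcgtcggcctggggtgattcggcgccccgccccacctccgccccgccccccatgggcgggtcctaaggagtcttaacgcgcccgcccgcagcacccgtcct
Taldo1: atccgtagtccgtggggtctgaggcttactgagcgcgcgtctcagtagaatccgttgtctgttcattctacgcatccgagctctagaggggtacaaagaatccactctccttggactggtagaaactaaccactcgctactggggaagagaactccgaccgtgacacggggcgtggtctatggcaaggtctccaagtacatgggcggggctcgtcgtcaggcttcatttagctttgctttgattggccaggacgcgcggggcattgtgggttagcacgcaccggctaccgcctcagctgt
Me1: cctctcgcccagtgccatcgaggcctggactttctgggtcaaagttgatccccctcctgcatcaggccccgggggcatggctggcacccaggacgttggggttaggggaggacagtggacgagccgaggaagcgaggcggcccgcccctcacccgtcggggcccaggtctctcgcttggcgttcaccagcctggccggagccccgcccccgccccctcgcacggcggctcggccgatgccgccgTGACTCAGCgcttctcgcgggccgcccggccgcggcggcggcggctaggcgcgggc
The core, searched on both strands, occurred in 2 of the 12 windows, which belonged to 2 of the 9 members. In Me1 the match TGACTCAGC ran from position -6 to position 2, counted from the first transcribed base as 0, and its opening letters TGACTCA are also an AP-1 motif. In the second window of Pgd the match TGACATTGC ran from position 3 to position 11, within transcribed sequence. The letters before this annotated start are a run of t ending in cag, as at the end of an intron. The letters after it can be read as protein-coding, so this match need not lie in a promoter. Of all 32851 windows of this length, 12.4% held the core. A match describes these letters and is not a measurement of binding. The sterol regulatory element TCACNCCAC, also searched on both strands, was in none of the members' windows and in 1.24% of all windows. Windows of 300 bases leave out more distant sites.

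With all arrays, loss of KEAP1 in NEMO-deficient hepatocytes was the comparison with the most members called. In hepatocytes Pgd, Tkt, Taldo1 and Pgls were higher in the double knockout than in the NEMO knockout, by 3.36-fold, 1.73-fold, 1.43-fold and 1.54-fold. These 4 of 9 members were called higher, as were 2.16% of the 18820 genes, and in all 4 the groups did not overlap, as in 11.1% of genes in that direction. The median change of the 9 members was 0.20, against -0.01 over all genes. H6pd, Rpia, Rpe, Me1 and Idh1 were not called. Without the arrays in doubt 3 members (Pgd, Tkt and Taldo1) were called higher here, as were 2.39% of genes, and 3 were called in 4 other comparisons too.

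**Figure D1:**
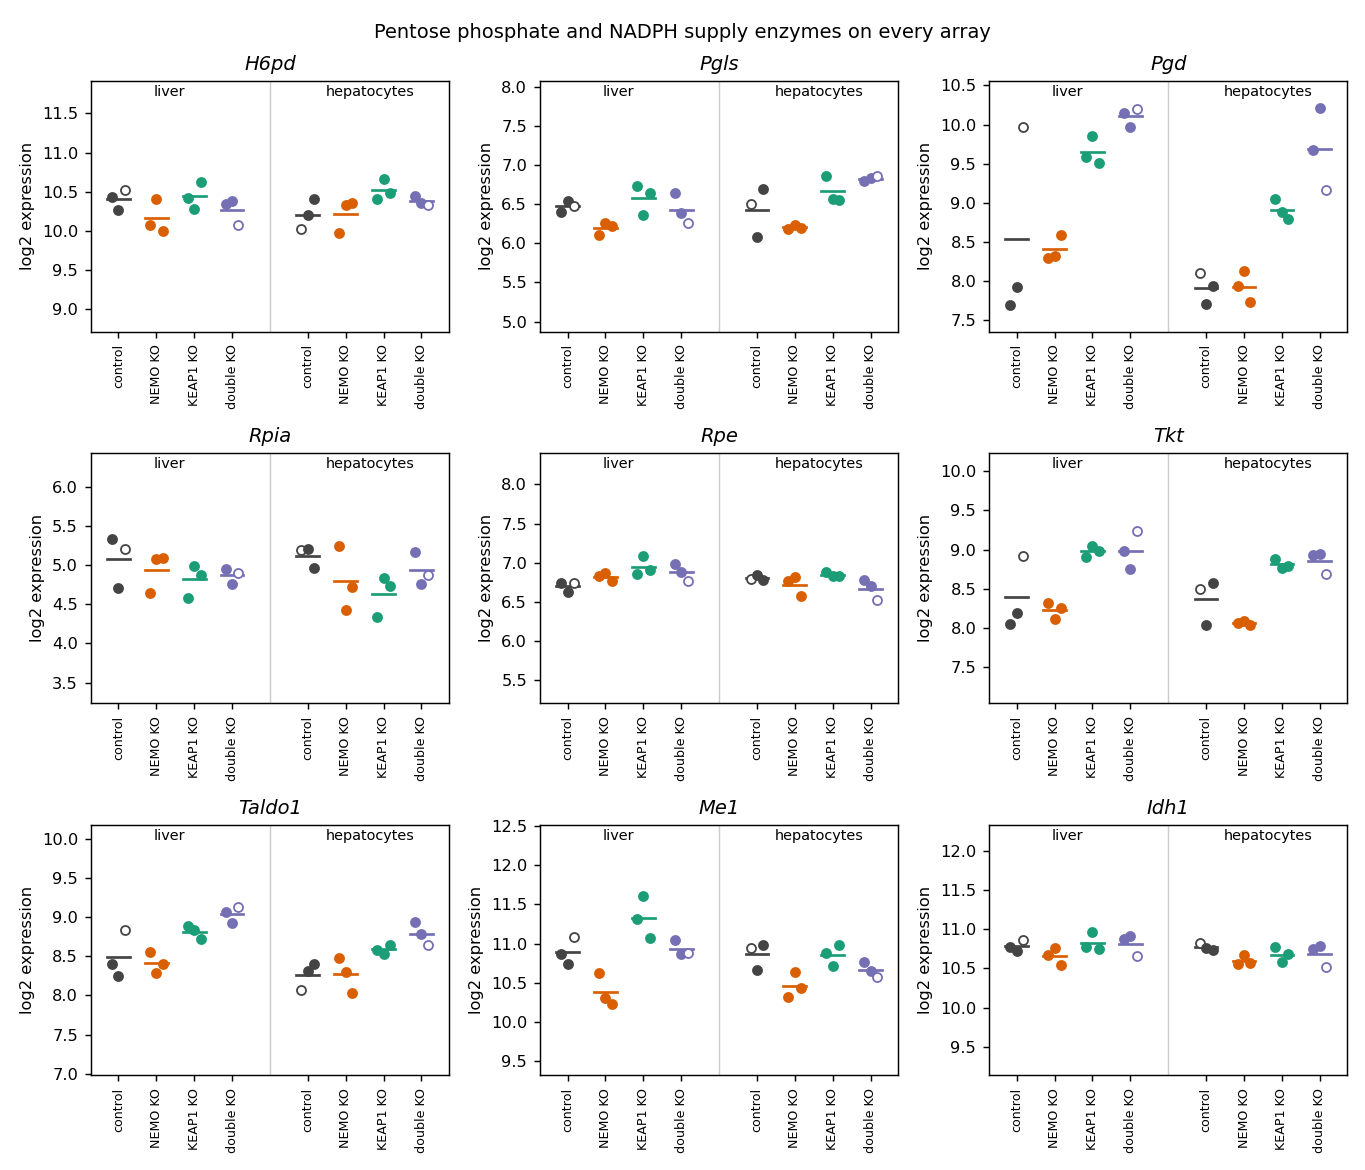
Log2 expression (y axis, every panel spanning the same number of log2 units) of the 9 measured genes in each of the 24 arrays, by genotype (x axis, KO for knockout) for liver on the left and hepatocytes on the right of each panel. Points are arrays, open points are the 4 arrays that stood apart or went against their labels, and bars are means of 3 arrays; Pgd runs from 7.70 to 10.22, whereas Idh1 stays between 10.51 and 10.96.

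Within the oxidative branch, Pgd encodes 6-phosphogluconate dehydrogenase, which releases ribulose 5-phosphate and NADPH. In hepatocytes its level was 8.11, 7.71 and 7.94 in the controls and 7.94, 8.13 and 7.74 in the NEMO knockout. It was 9.05, 8.89 and 8.80 in the KEAP1 knockout and 9.67, 10.22 and 9.16 in the double knockout. All 6 samples lacking KEAP1 were above all 6 that retained it, and the double knockout was above the KEAP1 knockout on each array. Pgd rose by 1.75 ± 0.21 with KEAP1 loss in NEMO-deficient hepatocytes (limma adjusted p = 0.000432, n = 3 per group) and by 0.99 ± 0.21 with KEAP1 loss alone (limma adjusted p = 0.0284). The double knockout exceeded the control by 1.76 ± 0.21 (limma adjusted p = 0.000128). Without the 2 hepatocyte arrays in doubt the first and the last of these were 2.01 ± 0.16 and 2.12 ± 0.17 (limma adjusted p = 2.05e-05 and 2.21e-05). The call for KEAP1 loss alone ended without hepatocyte control 2 or 3 or any single KEAP1 knockout array (limma adjusted p from 0.0538 to 0.131), and without the 4 arrays that stood apart the change was 1.09 ± 0.16 (limma adjusted p = 0.00480). Pgd in the double knockout was 0.77 ± 0.21 above the KEAP1 knockout, which did not pass (limma adjusted p = 0.0722), and 1.03 ± 0.16 above it without the array labelled hepatocyte double knockout 3 and the control array in doubt (limma adjusted p = 0.00447). NEMO loss alone left Pgd at 0.01 ± 0.21 from the control in hepatocytes (95% interval -0.43 to 0.46). The interaction of NEMO and KEAP1 loss, the extra effect of KEAP1 loss when NEMO was absent, was 0.76 ± 0.29 and did not pass (limma adjusted p = 0.409), nor did it without the arrays in doubt (0.92 ± 0.23, limma adjusted p = 0.217).

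In liver Pgd read 7.70, 7.93 and 9.97 in the controls and 8.30, 8.33 and 8.59 in the NEMO knockout. It read 9.58, 9.86 and 9.50 in the KEAP1 knockout and 10.15, 9.97 and 10.20 in the double knockout. The third control lay among the KEAP1-deficient livers, and the double knockout lay above the NEMO knockout without overlap. With all 12 liver arrays the double knockout exceeded the NEMO knockout by 1.70 ± 0.43 (limma adjusted p = 0.0942), the KEAP1 knockout exceeded the control by 1.11 ± 0.43 (limma adjusted p = 0.624), and no change was called. Without the arrays labelled liver control 3 and liver double knockout 3 the same differences were 1.66 ± 0.13 (limma adjusted p = 2.13e-05) and 1.83 ± 0.13 (limma adjusted p = 8.29e-06). The change with NEMO loss alone turned from -0.13 ± 0.43 (limma adjusted p = 0.904) to 0.59 ± 0.13 (limma adjusted p = 0.0115) without those arrays, and was also 0.59 when liver control 3 alone was left out (limma adjusted p = 0.0212).

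Pgls encodes 6-phosphogluconolactonase, the step before Pgd. In hepatocytes it read 6.50, 6.08 and 6.69 in the controls and 6.86, 6.57 and 6.56 in the KEAP1 knockout. It read 6.19, 6.23 and 6.19 in the NEMO knockout and 6.79, 6.83 and 6.86 in the double knockout. The NEMO and double knockout values were tightly grouped and apart, whereas the controls ran from below the NEMO knockout to 6.69, just under the double knockout. Pgls rose by 0.62 ± 0.14 with KEAP1 loss in NEMO-deficient hepatocytes (limma adjusted p = 0.0307). Leaving out any 1 of the 6 NEMO knockout or double knockout arrays ended this call (limma adjusted p from 0.0736 to 0.0968), with the change between 0.60 and 0.64, and the 4 arrays in doubt ended it too (limma adjusted p = 0.0722). In liver the same difference was 0.24 ± 0.13 (limma adjusted p = 0.517, and with the arrays in doubt left out 0.32 ± 0.13 at an adjusted p of 0.273), from 6.10, 6.25 and 6.22 in the NEMO knockout and 6.64, 6.39 and 6.25 in the double knockout, which overlapped.

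H6pd encodes hexose-6-phosphate dehydrogenase, which carries out the first oxidative steps inside the endoplasmic reticulum. Its levels lay between 9.97 and 10.66 over all 24 arrays. Hepatocytes of the KEAP1 knockout, at 10.41, 10.66 and 10.48, were just above the controls at 10.02, 10.20 and 10.40, a change of 0.31 ± 0.12 that did not pass (limma adjusted p = 0.244) and was 0.22 ± 0.12 without the control array in doubt (limma adjusted p = 0.504). H6pd was not called in any comparison.

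In the non-oxidative branch, Tkt encodes transketolase, which moves carbon units between sugar phosphates. In hepatocytes it read 8.50, 8.04 and 8.57 in the controls and 8.88, 8.77 and 8.80 in the KEAP1 knockout. It read 8.06, 8.09 and 8.04 in the NEMO knockout and 8.93, 8.95 and 8.68 in the double knockout. All 6 KEAP1-deficient samples lay above all 6 others. Tkt rose by 0.79 ± 0.12 with KEAP1 loss in NEMO-deficient hepatocytes (limma adjusted p = 0.00377), and this call held without any single array (limma adjusted p up to 0.0229). It rose by 0.48 ± 0.12 from control to double knockout (limma adjusted p = 0.0261), a call that ended without hepatocyte control 2 (0.32, limma adjusted p = 0.0683) or without hepatocyte double knockout 1 or 2 (0.45 and 0.44, limma adjusted p = 0.0909 and 0.113). With KEAP1 loss alone the change was 0.44 ± 0.12 (limma adjusted p = 0.101). Without the 2 hepatocyte arrays in doubt these 3 changes were 0.88 ± 0.13, 0.63 ± 0.14 and 0.51 ± 0.13 (limma adjusted p = 0.00238, 0.0132 and 0.0718).

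In liver Tkt read 8.06, 8.19 and 8.92 in the controls and 8.90, 9.05 and 8.99 in the KEAP1 knockout. It read 8.32, 8.11 and 8.26 in the NEMO knockout and 8.98, 8.75 and 9.24 in the double knockout. The third control again lay with the KEAP1-deficient livers, and the NEMO and double knockouts did not overlap. The double knockout exceeded the NEMO knockout by 0.76 ± 0.19 (limma adjusted p = 0.0946), and by 0.64 ± 0.10 without the 2 liver arrays in doubt (limma adjusted p = 0.00478). The KEAP1 knockout exceeded the control by 0.59 ± 0.19 (limma adjusted p = 0.617), and by 0.86 ± 0.10 without them (limma adjusted p = 0.000637).

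Taldo1 encodes transaldolase, which also moves carbon units and works beside transketolase. In hepatocytes it read 8.07, 8.31 and 8.40 in the controls and 8.58, 8.53 and 8.64 in the KEAP1 knockout. It read 8.48, 8.30 and 8.03 in the NEMO knockout and 8.93, 8.79 and 8.64 in the double knockout. The KEAP1-deficient samples were again all above the rest. Taldo1 rose by 0.52 ± 0.12 with KEAP1 loss in NEMO-deficient hepatocytes (limma adjusted p = 0.0346) and by 0.53 ± 0.12 from control to double knockout (limma adjusted p = 0.0135). The first call ended in 6 of the 12 fits that left out 1 array, namely without KEAP1 knockout 1 or 3, NEMO knockout 2 or 3, or double knockout 1 or 2 (limma adjusted p from 0.0528 to 0.122). The second ended without control 1 or double knockout 1 or 2 (limma adjusted p from 0.0522 to 0.0626). Without the 2 hepatocyte arrays in doubt the changes were 0.59 ± 0.12 and 0.51 ± 0.13 (limma adjusted p = 0.0166 and 0.0298).

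In liver Taldo1 read 8.40, 8.25 and 8.83 in the controls and 8.89, 8.84 and 8.73 in the KEAP1 knockout. It read 8.56, 8.28 and 8.40 in the NEMO knockout and 9.06, 8.93 and 9.13 in the double knockout. The double knockout lay above every other genotype without overlap, whereas the KEAP1 knockout overlapped the control through the array labelled liver control 3. The double knockout exceeded the NEMO knockout by 0.63 ± 0.14, just short of a call (limma adjusted p = 0.0533), and by 0.58 ± 0.10 without the 2 liver arrays in doubt (limma adjusted p = 0.00826). Leaving out liver control 2 alone, which is in neither group but shares the estimate of spread, gave a limma adjusted p of 0.0392.

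The 2 isomerising enzymes of this branch did not follow Tkt and Taldo1 to a call. Rpia encodes ribose-5-phosphate isomerase and lay between 4.33 and 5.33. It read 5.19, 5.21 and 4.96 in control hepatocytes and 4.33, 4.83 and 4.74 in the KEAP1 knockout, a lower level without overlap, with a change of -0.49 ± 0.21 that did not pass (limma adjusted p = 0.309, and with the arrays in doubt left out -0.45 ± 0.24 at an adjusted p of 0.477). Rpe encodes ribulose-phosphate 3-epimerase and lay between 6.52 and 7.08. In liver it read 6.74, 6.63 and 6.75 in the controls and 6.86, 7.08 and 6.90 in the KEAP1 knockout, a change of 0.24 ± 0.10 (limma adjusted p = 0.633, and with the arrays in doubt left out 0.26 ± 0.11 at an adjusted p of 0.182). Neither gene was called in any comparison.

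**Figure D2:**
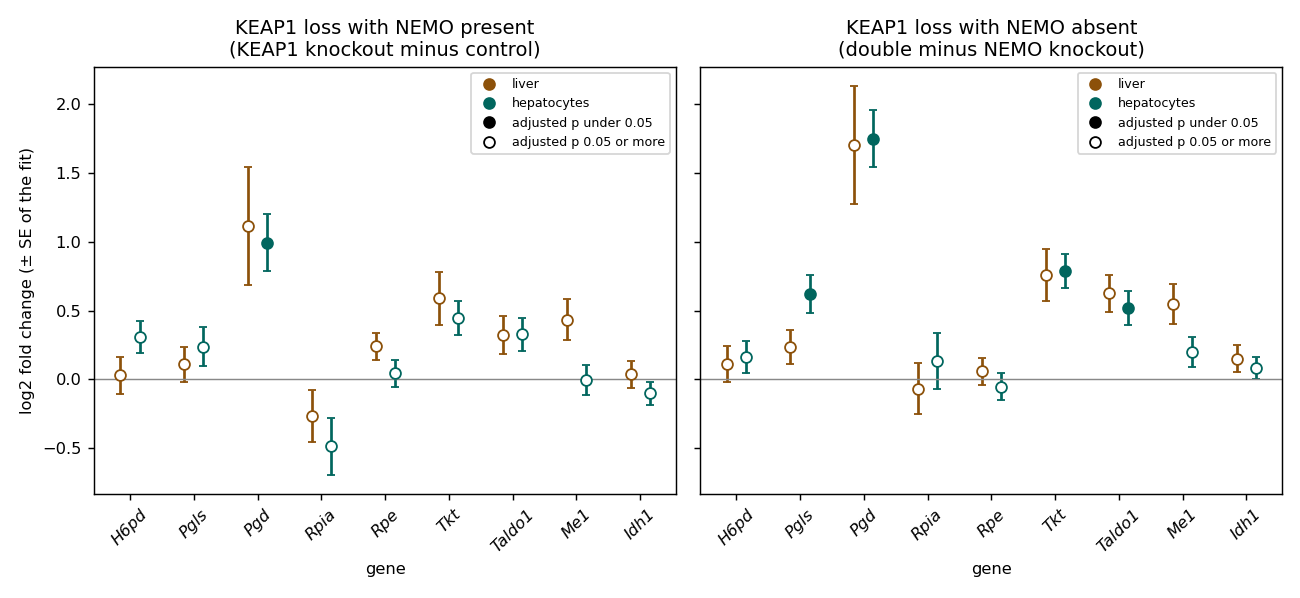
Log2 fold change with its standard error from limma (y axis) of each gene (x axis) on KEAP1 loss with NEMO present (left panel) and with NEMO absent (right panel), in liver and in hepatocytes, 3 arrays per group and all arrays included; filled points have an adjusted p under 0.05. Pgd has the highest point in both panels, at 1.70 in liver and 1.75 in hepatocytes in the NEMO-deficient setting, and only hepatocyte points are filled.

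Me1 encodes the cytosolic malic enzyme, which makes NADPH from malate and is known as a lipogenic gene. In liver it read 10.87, 10.73 and 11.08 in the controls and 10.62, 10.30 and 10.23 in the NEMO knockout. It read 11.32, 11.61 and 11.07 in the KEAP1 knockout and 11.05, 10.87 and 10.88 in the double knockout. The NEMO knockout was below every other genotype, and the double knockout overlapped the control. With NEMO loss the liver change was -0.51 ± 0.15 (limma adjusted p = 0.101) and with KEAP1 loss 0.44 ± 0.15 (limma adjusted p = 0.624), neither of which passed. Without the 2 liver arrays in doubt they were -0.42 ± 0.15 (limma adjusted p = 0.0990) and 0.53 ± 0.15 (limma adjusted p = 0.0678). The double knockout exceeded the NEMO knockout by 0.55 ± 0.15 (limma adjusted p = 0.114), and by 0.57 ± 0.15 without the 2 liver arrays in doubt (limma adjusted p = 0.0669). A second probe set of Me1 gave changes of -0.49 and 0.52 for NEMO loss and for the double minus the NEMO knockout.

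In hepatocytes Me1 read 10.94, 10.66 and 10.98 in the controls and 10.32, 10.64 and 10.43 in the NEMO knockout. It read 10.88, 10.72 and 10.98 in the KEAP1 knockout and 10.77, 10.65 and 10.57 in the double knockout. The NEMO knockout was below the control, with its highest array, 10.64, next to the lowest control, 10.66. Me1 fell by 0.40 ± 0.11 with NEMO loss (limma adjusted p = 0.0434), the 1 member called in that comparison, where 2.05% of all genes were called lower. This call ended in 6 of the 12 fits that left out 1 array, namely without control 1 or 3, NEMO knockout 1 or 3, KEAP1 knockout 1 or double knockout 2 (limma adjusted p from 0.0599 to 0.173), and without the arrays in doubt (limma adjusted p = 0.116). The second probe set of Me1 changed by -0.32 with NEMO loss in hepatocytes. KEAP1 loss alone left Me1 at -0.003 ± 0.11 from the control in hepatocytes (95% interval -0.24 to 0.23), and the liver change minus the hepatocyte change was 0.44 ± 0.19 (limma adjusted p = 0.856), or 0.49 ± 0.21 without the 4 arrays in doubt (limma adjusted p = 0.486).

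Idh1 encodes the cytosolic NADP-dependent isocitrate dehydrogenase. It lay between 10.51 and 10.96 over all arrays. In hepatocytes it read 10.83, 10.77 and 10.73 in the controls and 10.56, 10.67 and 10.56 in the NEMO knockout, which did not overlap. That change, -0.18 ± 0.08, did not pass (limma adjusted p = 0.273, and with the arrays in doubt left out -0.15 ± 0.08 at an adjusted p of 0.352), and Idh1 was not called in any comparison.

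Counted over the list, liver gave 0 called members in all 6 comparisons of genotypes with all 12 arrays. At an unadjusted limma p under 0.05, 4 members (Pgd, Tkt, Taldo1 and Me1) were higher in the double than in the NEMO knockout, where 11.9% of all genes were at that threshold in either direction and 1.05% were called. These 4 did not overlap between the groups, as did 8.87% of all genes in that direction. KEAP1 loss alone had 5 members at an unadjusted p under 0.05 (Pgd, Rpe, Tkt, Taldo1 and Me1), where 7.69% of genes were and 0% were called. NEMO loss alone had 2 of 9 (Pgls and Me1, both lower), a share near that of all genes, of which 18% were at that threshold and 1.33% were called. Without the 2 liver arrays in doubt, 3 members (Pgd, Tkt and Taldo1) were called higher in the double against the NEMO knockout (1.92% of all genes were called higher), 3 with KEAP1 loss alone (3.71%), 3 from control to double knockout (6.37%), and Pgd with NEMO loss (8.48%). These calls are not independent of the choice of liver control 3, made on its high Nqo1, Slc7a11 and Pgd. Pgd is itself a member, so these fits are no test of it. The double against the KEAP1 knockout, at 0% and 0.0531% of genes with all arrays and without the arrays in doubt, had 0 members called in liver either way. At an unadjusted limma p under 0.05 it had 1 member (Me1, lower) with all arrays, where 7.59% of genes were.

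The double knockout against the control in liver is the only pair of genotypes in which every same-numbered pair of arrays deviated together at a correlation over 0.1. The KEAP1 and double knockout livers came close, at 0.09, 0.10 and 0.23. With all arrays it had 3 members at an unadjusted limma p under 0.05 (Pgd, Tkt and Taldo1), where 20.7% of all genes were, and 0 called, where 0.00531% were. Pgd, Rpe and Taldo1 were higher without overlap, as were 8.45% of genes. With the replicate number as a block over all liver genotypes, 2 members were called, Pgd at 1.58 ± 0.39 (limma adjusted p = 0.0484) and Taldo1 at 0.55 ± 0.13 (limma adjusted p = 0.0395). The share of all genes called with this block is not given here, so the count is not set against it. Without the 2 liver arrays in doubt, Pgd exceeded the control by 2.25 ± 0.14 (limma adjusted p = 2.81e-06), Tkt by 0.74 ± 0.11 (limma adjusted p = 0.00205) and Taldo1 by 0.67 ± 0.11 (limma adjusted p = 0.00360).

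**Figure D3:**
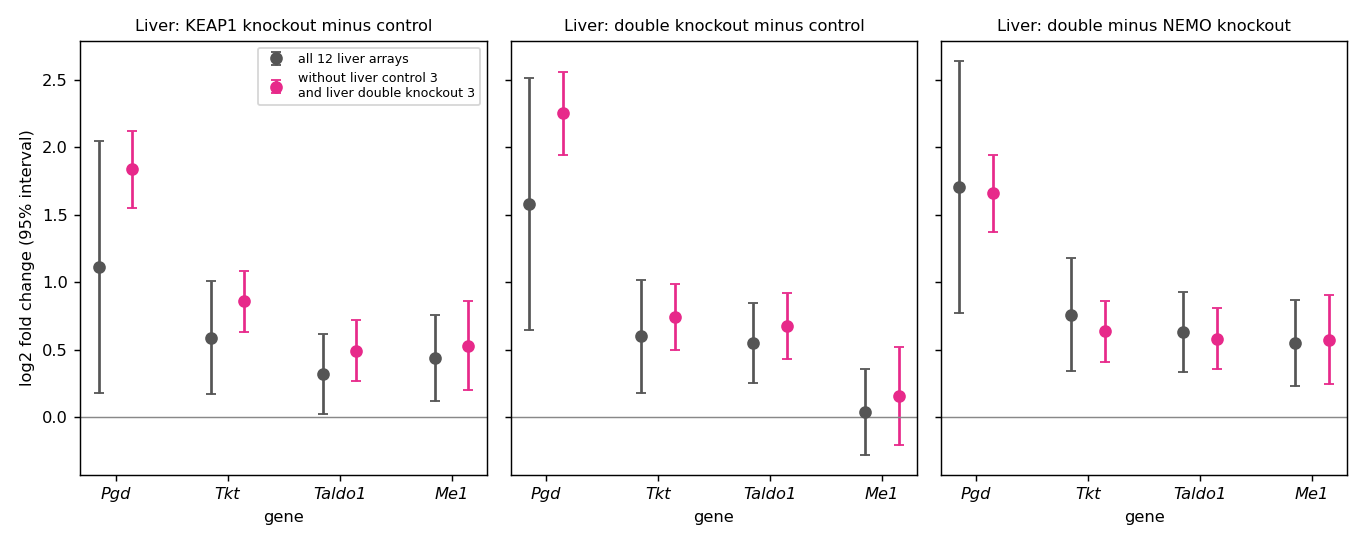
Log2 fold change with its 95% interval (y axis) of Pgd, Tkt, Taldo1 and Me1 (x axis) in 3 liver comparisons, with all 12 liver arrays (grey) and without liver control 3 and liver double knockout 3 (pink). For Pgd on KEAP1 loss alone the change moves from 1.11 to 1.83 and its interval narrows, whereas for Me1 it moves from 0.44 to 0.53.

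In hepatocytes the double knockout had 3 members called higher than in the control (Pgd, Tkt and Taldo1), where 6.73% of all genes were called higher, and KEAP1 loss alone had 1 (Pgd), where 1.45% were. The double knockout and the control did not overlap for Pgls, Pgd, Tkt and Taldo1 (higher, as for 13.1% of genes) and for Rpe (lower, as for 12.5%). The KEAP1 knockout and the control did not overlap for H6pd, Pgd, Tkt and Taldo1 (higher, as for 10.1% of genes) and for Rpia (lower, as for 9.21%). The double against the KEAP1 knockout had 0 called and 1 at an unadjusted limma p under 0.05 (Pgd), where 2.75% of genes were called and 14.8% were at the unadjusted threshold in either direction. The interaction of NEMO and KEAP1 loss called 0 members in either source. Hepatocytes had 1 member at an unadjusted limma p under 0.05 (Pgd) and liver had 0, against 9.93% and 5.06% of all genes, and 0.0425% and 0.0106% of genes were called. These counts are near the shares of all genes. Comparisons that share a control or knockout group are not independent of each other.

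Liver and hepatocytes were tested against each other in the controls and in their changes with genotype, and no member was called. Control hepatocytes against control liver had 0 members called or at an unadjusted limma p under 0.05, where 5.13% of genes were called and 17% were at the unadjusted threshold. The changes with NEMO loss, KEAP1 loss and both losses in liver minus those in hepatocytes had 0 called members each, and 0, 1 (Me1) and 2 (Pgls and Rpe) at an unadjusted limma p under 0.05, where 9.46%, 5.68% and 7.59% of genes were at that threshold and 0.0691%, 0% and 0.0691% were called. For Pgd the change with both losses in liver minus that in hepatocytes was -0.19 ± 0.51, with a 95% interval of -1.26 to 0.88, and 0.13 ± 0.24 without the 4 arrays in doubt (-0.38 to 0.64).

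Ranked over the 8 groups, Pgd ran from the double knockout liver (mean 10.11) through double knockout hepatocytes (9.68) and KEAP1 knockout liver (9.65) down to KEAP1 knockout hepatocytes (8.91). Control liver (8.53), NEMO knockout liver (8.41), NEMO knockout hepatocytes (7.93) and control hepatocytes (7.92) followed. Of neighbours in this order, KEAP1 knockout liver and KEAP1 knockout hepatocytes did not overlap, nor did NEMO knockout liver and NEMO knockout hepatocytes, and the rest overlapped. Tkt and Taldo1 put the same 4 KEAP1-deficient groups first. For Me1 the KEAP1 knockout liver (11.33) stood above the next group without overlap, and the lowest means were the NEMO knockout hepatocytes (10.46) and liver (10.38). For H6pd, Pgls, Rpia, Rpe and Idh1 the arrays of every pair of neighbouring groups in the order overlapped.

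Across the 24 arrays, after each source was centred on its own mean, Pgd and Tkt had a Pearson correlation of 0.91, Pgd and Taldo1 0.90, and Tkt and Taldo1 0.85. The highest correlation of Rpia with another member was 0.06 (Idh1), and Me1 was closest to Idh1 (0.66) and Tkt (0.65). Of all other genes, Txnrd1 (0.99), the thioredoxin reductase, and Srxn1 (0.97), sulfiredoxin, were nearest to Pgd. Gstm4 (0.95), a glutathione transferase, and Cyp2a5 (0.95) were nearest to Tkt. Bin1 (0.93) and Gsr (0.91), glutathione reductase, were nearest to Taldo1, and Auh (0.88) and Ift52 (0.87) to Me1. For the rest the nearest were Rpl37 (0.86) and Micos13 (0.86) for Pgls, Rnf44 (0.84) and Nop10 (0.82) for H6pd, Hibch (0.77) and Dennd3 (0.76) for Idh1, Ufm1 (0.76) and Uso1 (0.73) for Rpe, and Tal2 (0.70) and Spata33 (0.70) for Rpia. These are descriptions over arrays that share genotype groups, sources and the 4 arrays in doubt.

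The genes around the members were read from lists. Of 12 measured further genes of pentose phosphate and ribose metabolism, 0 were called between the double and the NEMO knockout in hepatocytes, with a median change of 0.03, and 0 with KEAP1 loss alone. By limma, 4 and 2 of the 12 had an unadjusted p under 0.05 in these comparisons. From control to double knockout in hepatocytes Pgm2 rose by 0.83 ± 0.18 (limma adjusted p = 0.0105) and Rbks, ribokinase, fell by 0.46 ± 0.10 (limma adjusted p = 0.00921). In that comparison 6.73% of all genes were called higher and 2.99% lower. Rbks also fell with NEMO loss alone, by 0.37 ± 0.10 (limma adjusted p = 0.0390), together with Shpk, the kinase that makes sedoheptulose 7-phosphate, by 0.66 ± 0.17 (limma adjusted p = 0.0358), and both of these calls with NEMO loss ended without the arrays in doubt. With NEMO loss 2.05% of all genes were called lower. In liver 0 of these genes were called with all arrays. Between the double and the NEMO knockout 1 had an unadjusted limma p under 0.05, as did 11.9% of all genes. Without the 2 liver arrays in doubt Dera, deoxyribose-phosphate aldolase, rose in that comparison by 0.43 ± 0.10 (limma adjusted p = 0.0434), where 1.92% of all genes were called higher.

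A wider list around NADPH and NADP supply had 15 measured genes, not all of which make NADPH. Their median change between NEMO and double knockout hepatocytes was 0.08. There 2 of them rose, as did 2.16% of all genes, and 0 fell. These were Mthfd1l, a mitochondrial enzyme of folate metabolism, by 1.23 ± 0.22 (limma adjusted p = 0.00939), and Aldh1l1, which makes NADPH from formyl-folate, by 0.60 ± 0.10 (limma adjusted p = 0.00523). Aldh1l1 had fallen with NEMO loss alone, by 0.48 ± 0.10 (limma adjusted p = 0.00994), where 2.05% of all genes were called lower. From control to double knockout Mthfd1l rose by 1.62 ± 0.22 and Me2, the mitochondrial malic enzyme, by 0.96 ± 0.20, and Mthfd1 fell by 0.28 ± 0.08 (limma adjusted p = 0.0486), a call that ended without the arrays in doubt. In liver 0 of the 15 were called with all arrays. Between the double and the NEMO knockout 5 had an unadjusted limma p under 0.05, as did 11.9% of all genes. Without the 2 liver arrays in doubt Aldh1l1 rose in that comparison by 0.72 ± 0.14 (limma adjusted p = 0.0135), where 1.92% of all genes were called higher.

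Redox genes that spend NADPH were read beside the supply genes. Between the NEMO and the double knockout in hepatocytes 2.16% of all genes were called higher and 1.16% lower. There 8 of the 12 redox genes measured rose and 0 fell, with a median change of 0.93. Among them Gsr rose by 0.89 ± 0.08 (limma adjusted p = 7.21e-05), Txnrd1 by 0.97 ± 0.11 (limma adjusted p = 0.000228) and Nqo1 by 3.91 ± 0.51 (limma adjusted p = 0.000918). In liver 3 of the 12 rose with all arrays (Gsr, Blvrb and Cbr3) and 7 without the 2 liver arrays in doubt. Of all genes 0.414% and 1.92% were called higher in these fits, and 0.632% lower with all arrays. Of 16 measured genes of lipogenesis, the other large use of NADPH, 0 rose and 2 fell in the same hepatocyte comparison (Fads1 by 0.97 ± 0.19 and Mlxipl by 0.46 ± 0.11, limma adjusted p = 0.0157 and 0.0438, the latter call ending without the arrays in doubt), and in liver 0 rose and 4 fell (Elovl6, Elovl5, Fads1 and Fads2). Of 14 measured genes of glucose entry and upper glycolysis, 2 rose in hepatocytes (Slc2a1, the GLUT1 transporter, by 0.96 ± 0.16 and Aldoa, an aldolase, by 0.66 ± 0.09, limma adjusted p = 0.00490 and 0.00113). G6pc, glucose-6-phosphatase, fell by 0.43 ± 0.09 (limma adjusted p = 0.0200).

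Markers of other cells moved with genotype in the hepatocyte preparations. From control to double knockout all 13 macrophage markers, 8 of 9 endothelial and 9 of 10 stellate cell and fibroblast markers were called higher. Of all genes 6.73% were called higher there. The log2 of the summed macrophage markers was 9.22 to 10.35 in control hepatocytes, 10.02 to 10.75 in the KEAP1 knockout, 11.01 to 11.52 in the NEMO knockout and 11.34 to 11.90 in the double knockout. With KEAP1 loss alone 8 endothelial and 2 macrophage markers were called higher, and 7 and 0 once the arrays in doubt were left out. Of all genes 1.45% and 1.34% were called higher in these fits. Between the NEMO and the double knockout, where Pgd, Tkt, Taldo1 and Pgls rose, 2 macrophage markers and 1 endothelial marker were called higher and 1 stellate marker lower. Of all genes 2.16% were called higher and 1.16% lower there. With NEMO loss alone 10 macrophage, 8 endothelial and 9 stellate markers were called higher, while Pgd was 0.01 from the control. Of all genes 4.61% were called higher with NEMO loss. In these bulk samples fewer cells of a type and less RNA per cell cannot be told apart, and the part of other cells in the members' changes was not tested. In liver the log2 of the summed macrophage markers was 10.73 to 11.76 in the control, 10.98 to 11.68 in the KEAP1 knockout, 11.64 to 11.92 in the NEMO knockout and 11.74 to 11.97 in the double knockout. None of the macrophage, endothelial or stellate markers was at array background (the highest Xist reading on an array without that transcript, 2.98) in any group. In liver the summed fat cell markers reached a log2 of 10.44 in the double knockout, on the third array, against at most 6.66 in the other liver groups.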

How the data were processed

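RNA of 24 mouse samples was hybridised to Affymetrix arrays, 1 array per sample. The authors deposited log2 values per probe set, and per the submitters' processing notes they come from RMA, whose version is not stated. RMA sets the probe intensities of all arrays to 1 distribution before summarising them, so the probe set values can still differ between arrays. Array medians of the deposited values ran from 4.03 to 4.23. Of 35556 probe sets, 21218 had 1 symbol in the platform annotation, 1881 had several and 12457 were not listed; the brightest per symbol was kept, giving 18820 genes, with no filter. Group means were fitted with limma 3.58.1 (R 4.3.3; lmFit, eBayes with an intensity trend), over the 12 arrays of a source or, for contrasts across sources, all 24, two-sided, with Benjamini-Hochberg adjustment per comparison. The number of arrays limits the precision, and depth has no meaning here. The fit was tested on simulated data.

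All list members were named; other genes only where called, or as the 2 nearest by correlation. Members and lists were chosen with earlier results of these data known. Alternatives were the mean of probe sets, no trend, quantile normalization, median centring, genes above the median level, a replicate block, the 2 groups alone, each array left out and, chosen after seeing the data, the 4 arrays in doubt left out. The replicate block covered all genotypes of a source. Same-numbered arrays' deviations from group means correlated at 0.12, 0.14 and 0.23 between liver control and liver double knockout. No other pair of genotypes within a source had every correlation over 0.1. The labels state no pairing.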

Additional observations from a re-analysis of the deposited data

Results flagged for a closer look

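H6pd and Rpe had changes of opposite sign in the 2 sources on loss of both NEMO and KEAP1. For H6pd the change from control was -0.14 in liver and 0.17 in hepatocytes, a difference of -0.31 ± 0.18 that did not pass (limma adjusted p = 0.749). Without the arrays in doubt its change was above 0 in both sources, 0.02 and 0.10. For Rpe it was 0.18 in liver and -0.14 in hepatocytes, a difference of 0.32 ± 0.13 that did not pass (limma adjusted p = 0.575). Neither gene was called in either source.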

How the results depend on the processing

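With 3 arrays per group precision was limited, and the smallest change of a member called with all arrays was -0.40. Without the 4 arrays in doubt, the count of called members went in liver from 0 to 1 for NEMO loss (Pgd, whose change turned from -0.13 to 0.59), to 3 for KEAP1 loss, to 3 for the double knockout against control and to 3 against the NEMO knockout, and in hepatocytes from 1 to 0 for NEMO loss and from 0 to 1 for the double against the KEAP1 knockout. With the replicate block, counts became 2 for liver double knockout against control, 2 for liver double against NEMO knockout and 0 for NEMO loss in hepatocytes, and no other count moved beyond 1.5 times. For liver double against NEMO knockout the count was also 1 among genes above the median level, 3 with median centring and 3 with the 2 groups alone. For NEMO loss in hepatocytes it was 0 with the mean of probe sets, no trend, quantile normalization or the 2 groups alone, and 3 with median centring. KEAP1 loss in hepatocytes had 0 without the trend, and hepatocyte double against NEMO knockout had 2 with median centring. Shares of all genes called in these alternative fits, or with 1 array left out, are not given beside the counts. The counts therefore describe the members only. Median centring moved the median change of all genes by over 0.1 in 7 of 16 comparisons, for example from -0.03 to -0.23 for the double knockout against control in hepatocytes, but only from -0.01 to -0.04 for double against NEMO knockout there, and quantile normalization in 0; no called member changed sign under it or under quantile normalization.

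Leaving out 1 array at a time, the counts ranged in liver from 0 to 1 for NEMO loss (Pgd then 0.59 without liver control 3, and from -0.55 to 0.59 in all), 0 to 3 for KEAP1 loss, 0 to 3 for the double knockout against control and 0 to 3 against the NEMO knockout. In hepatocytes they ranged from 0 to 2 for NEMO loss, 0 to 1 for KEAP1 loss, 1 to 4 for the double knockout against control, 2 to 4 against the NEMO knockout and 0 to 1 against the KEAP1 knockout. In liver the double against the KEAP1 knockout, both interactions and the 4 comparisons across sources stayed at 0. Beyond what the values show, the cause was not tested.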
